A study of Mus musculus with 24 samples.

Results

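The regions described here are 332 strong H3K9ac peaks that lay away from gene starts and were listed in both WT and G9a knockout mouse embryonic stem cells at day 10 of differentiation. They were chosen from the 35882 peaks of the WT day 10 list on chromosomes 1 to 19. A member had a fold enrichment of at least 4, overlapped by at least 1 bp a knockout day 10 peak with a fold enrichment of at least 4, and lay more than 5 kb from every gene start of the gene table (mm9). Of 5287 WT day 10 peaks with a fold of at least 4, 3886 met the overlap rule, and 3554 of these lay within 5 kb of a gene start. The members were thus selected on measured day 10 values, and those values are given below as a description only.

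WT stands for the parental female line 16.7 Tsix +/TST, in which 1 Tsix allele carries the TST modification, and KO for the G9a knockout made in that line, so the Tsix allele was shared by all groups. Cells were taken undifferentiated (day 0) or after 10 days without LIF (day 10), first in suspension and then on gelatin-coated plates. Each of the 4 combinations of line and day had 1 H3K9ac ChIP sample and 3 total RNA libraries. The labels do not give the number of knockout clones. With 1 ChIP sample in a group, no peak value has a replicate check, and intervals on shares of peaks cover counting error only.

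H3K9ac is acetylation of lysine 9 on the tail of histone H3, a mark placed by acetyltransferases such as GCN5 and PCAF (Kat2a and Kat2b). It is known best from the starts of transcribed genes and is also found at active enhancers, which lie away from the genes they act on. The same lysine is dimethylated by G9a (Ehmt2) with its partner GLP (Ehmt1), and a lysine cannot carry both marks at once. A peak far from an annotated start may be an enhancer, an unlisted start of transcription or a place where reads pile up for other reasons, and no further mark was used here to tell these apart. The peaks were not set against a list of artefact-prone regions, and the signal in the inputs was not analysed here. The members are therefore called distal peaks here.

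The gene starts that define "distal" come from a table with 1 start per gene, and several members lay near genes whose listed start carried no peak. The 300-base promoter windows of 4 nearest genes whose RNA rose are printed for that reason (250 bases before and 50 after the start, RefSeq, GRCm38.p6, with the C and G of every CG pair in capitals). Lphn2 (Adgrl2 in RefSeq), Fat1 and Utrn had no WT day 10 peak within 1 kb of the listed start, and their windows held 4, 2 and 2 CG pairs. Zmiz1 had a peak at its start, and its window held 26. The windows were matched by gene, and whether each lies at the start used for the distances was not tested.
Lphn2, chr3:148954586-148954885, minus strand: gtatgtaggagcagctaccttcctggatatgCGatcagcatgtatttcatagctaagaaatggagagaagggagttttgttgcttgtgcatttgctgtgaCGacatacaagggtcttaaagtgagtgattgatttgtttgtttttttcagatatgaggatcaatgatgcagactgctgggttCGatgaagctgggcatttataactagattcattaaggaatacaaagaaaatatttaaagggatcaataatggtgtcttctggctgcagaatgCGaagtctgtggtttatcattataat
Fat1, chr8:44949958-44950257, plus strand: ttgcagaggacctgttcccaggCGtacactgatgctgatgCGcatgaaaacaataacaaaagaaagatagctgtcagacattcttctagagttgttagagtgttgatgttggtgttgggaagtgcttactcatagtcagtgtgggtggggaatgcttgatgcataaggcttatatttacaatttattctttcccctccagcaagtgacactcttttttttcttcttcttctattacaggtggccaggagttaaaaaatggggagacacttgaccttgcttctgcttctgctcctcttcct
Utrn, chr10:12861686-12861985, minus strand: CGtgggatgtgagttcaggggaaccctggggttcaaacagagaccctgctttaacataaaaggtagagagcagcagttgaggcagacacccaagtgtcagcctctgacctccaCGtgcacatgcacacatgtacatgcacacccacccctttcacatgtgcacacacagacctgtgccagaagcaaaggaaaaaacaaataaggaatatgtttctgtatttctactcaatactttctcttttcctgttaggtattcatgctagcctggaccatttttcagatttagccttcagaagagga
Zmiz1, chr14:25458935-25459234, plus strand: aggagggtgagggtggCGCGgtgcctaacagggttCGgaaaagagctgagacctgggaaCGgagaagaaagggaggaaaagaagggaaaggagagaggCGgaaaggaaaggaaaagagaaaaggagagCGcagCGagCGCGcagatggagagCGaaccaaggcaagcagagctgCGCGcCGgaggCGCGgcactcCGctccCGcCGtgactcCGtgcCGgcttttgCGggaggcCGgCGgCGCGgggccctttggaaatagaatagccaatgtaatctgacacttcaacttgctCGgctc

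Among the nearest listed genes of members were 12 microRNA genes, 10 of them with a mature sequence in RefSeq. MicroRNAs are cut from longer transcripts that can start kilobases before the hairpin, so a distance from the hairpin is not a distance from the transcript's start. The mature RNAs of 4 of these genes, all well-known regulators of growth or the cell cycle, are shown. These 4 were picked by hand and do not describe the other microRNA genes. The seed (bases 2 to 8, which pairs with targets) is in capitals, and no pair of them shares a seed.
mmu-let-7a-5p: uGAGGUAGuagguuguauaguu
mmu-miR-15a-5p: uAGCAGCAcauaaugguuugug
mmu-miR-34a-5p: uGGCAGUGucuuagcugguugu
mmu-miR-193b-3p: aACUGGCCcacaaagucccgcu
All 4 members lay upstream of the hairpin. The member before Mirlet7a-1 (chr13:48639726-48642824, 3099 bp) ended 6.08 kb away, that before Mir15a (chr14:62265790-62268471, inside Dleu2) 14.8 kb away, that before Mir34a (chr4:149421688-149425081) 17.5 kb away and that before Mir193b (chr16:13437117-13438930) 10.7 kb away. Of these the Mir193b member had no peak at day 0 in either line. The libraries gave almost no reads over the hairpins: Mir15a and Mir193b were at 0 in all 12, and the highest value was 3.97 normalised reads for Mir34a in 1 KO day 10 library.

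The fold enrichment of the members ran from 4.02 to 24.5 (median 5.64) in the WT day 10 list and from 4.00 to 20.6 (median 5.24) in the KO day 10 list. These values are the authors' own and set the membership. Just inside the threshold lay members near Gm8633 (4.02 in WT) and Olfr103 (4.00 in KO), and just outside it lay peaks near A3galt2 (3.98 in WT) and Mir344b (3.99 in KO). The member nearest to a gene start lay 5.02 kb from Fbrs, and a peak 4.91 kb from Eid3 was left out. The member that ranked highest over both lists lay 14.9 kb downstream of the start of Gzmf, a granzyme gene (chr14:56813133-56815317, fold 14.4 in WT and 13.2 in KO). The next lay 175 kb upstream of Vegfc, a growth factor of lymphatic vessels (chr8:54986856-54987802, 13.4 and 11.5). The others of the highest 10 lay nearest to 4930467E23Rik, Nalcn, Gm4710, Pdc, 4930448I06Rik, Cox7c, D3Ertd751e and Rnf32. Of these 10, the member for D3Ertd751e lay farthest from a start, at 1631 kb, and the one for Cox7c lay at 1139 kb.

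Members differed in shape and place. In the WT list their median width was 864.5 bp, with a range of 290 to 9798 bp, against 2390 bp for the 3554 shared strong peaks near gene starts. Narrow members under 1 kb numbered 191 (57.5%), those of 1 to 2 kb 70, and wide members of 2 kb or more 71. Near gene starts the same classes held 176 (4.95%), 1072 and 2306 peaks. Narrow members lay at a median of 149 kb from the nearest start, and 59.2% of them were more than 100 kb away. Wide members lay at a median of 18.6 kb, and 4.23% were more than 100 kb away. Across the 332 members the rank correlation of width and distance was -0.458, a description over regions of 1 library.

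**Figure D1:**
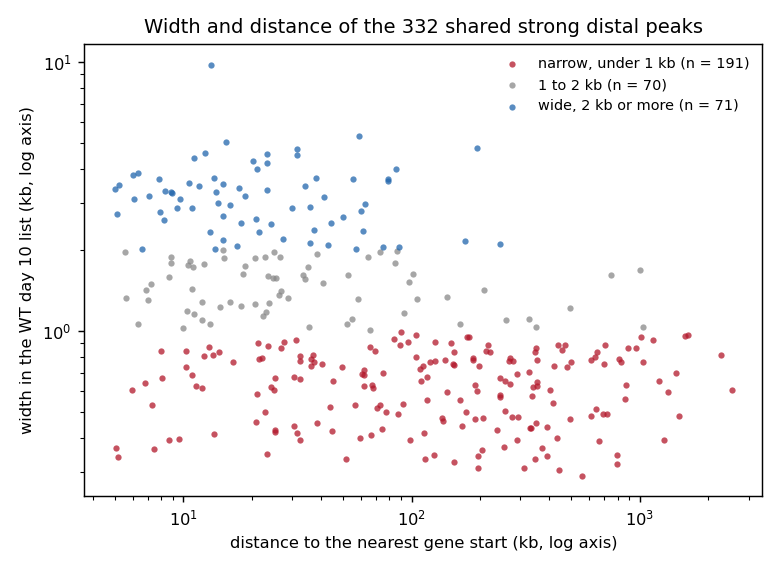
Width in the WT day 10 list (kb, log axis) against distance to the nearest gene start (kb, log axis) for the 332 members, 1 point each, coloured by width class. The 71 wide members sit mostly under 100 kb (median 18.6 kb), and the 191 narrow ones spread to beyond 1000 kb (median 149 kb).

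Of all members, 86 (25.9%) lay inside a gene, 61 of them inside their nearest gene, against 45.1% of the 22142 weaker distal peaks. Narrow members lay inside a gene in 18.3% of cases and wide ones in 36.6%. Members rarely stood together, since 2 of the 332 had another member within 10 kb and 16 within 100 kb. The 332 members shared 316 nearest genes, 302 of which had 1 member, 12 had 2 and 2 had 3. The genes with 3 members were Tsn, which codes for an RNA- and DNA-binding protein, and 4930545E07Rik. Among the 5 widest were members nearest to Arid1a, Zfp239, Il12a and Lphn2. One of 5319 bp at chr4:133368122-133373440, lay 58.6 kb upstream of Arid1a, a subunit of the BAF chromatin remodelling complex.

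The day 0 lists took no part in the choice, and nearly all members were listed there too. A WT day 0 peak touched 317 of 332 members (95.5%, Wilson 95% interval 92.7 to 97.2%), and a KO day 0 peak touched 314 (94.6%, 91.6 to 96.5%). Both lines had one at 304 members, WT alone at 13, KO alone at 10 and neither at 5. Of the 22142 weaker distal peaks 16.7% had a WT day 0 peak and 12.4% a KO day 0 peak. Of the 3554 shared strong peaks near starts 97.6% and 96.1% had one. The 355 strong distal WT peaks without a strong KO partner had 88.5% and 87.3%. All 67 members with a WT day 10 fold of at least 8 had a day 0 peak in both lines.

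**Figure D2:**
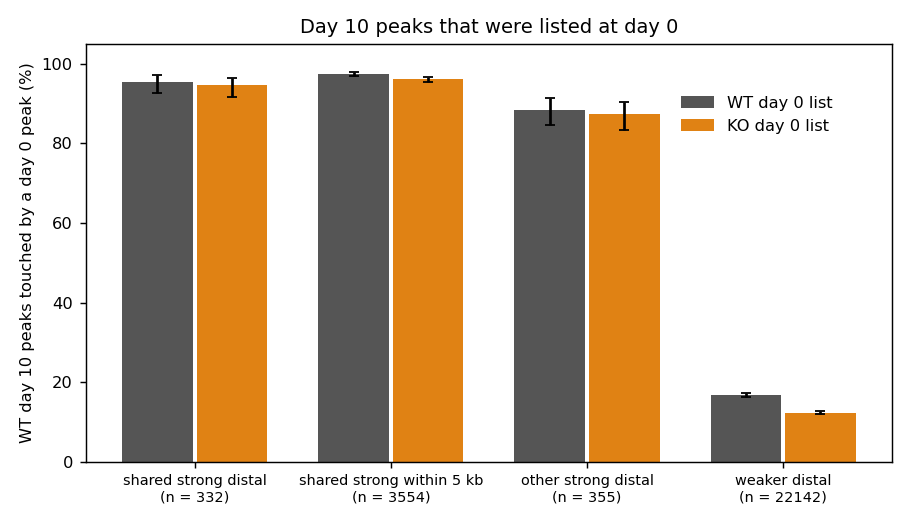
Share of WT day 10 peaks (%) touched by a peak of the WT (grey) or KO (orange) day 0 list, for 4 sets of peaks, with Wilson 95% intervals as error bars. The members stand at 95.5% and 94.6%, near the strong peaks within 5 kb of starts and above the 16.7% and 12.4% of weaker distal peaks.

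Strength at day 0 differed between the width classes of day 10. Narrow members also had the higher WT day 10 fold, with a median of 6.35 against 4.82 for wide ones. Across members the rank correlation of day 10 and day 0 folds was 0.646 in WT and 0.376 in KO. The part of day 10 strength was not tested. Of the 191 narrow members 85.9% had a WT day 0 peak with a fold of at least 4, and 90.1% had such a KO day 0 peak. Of the 71 wide members 16.9% and 31.0% did. The wide members were in this respect close to the shared strong peaks near starts, of which 15.5% and 28.8% reached that fold. Narrow peaks near starts did not share the pattern of narrow members: 12.5% of 176 had a WT day 0 fold of at least 4. The 355 strong distal WT peaks without a strong KO partner, with a median width of 797 bp, shared it in part. Of these 46.8% had a WT and 53.2% a KO day 0 fold of at least 4, against 63.6% and 69.0% of all members. Day 0 peaks covered at least 50% of the member at 96.3% of narrow members in either line. At wide members they did so in 74.6% of cases in WT and 54.9% in KO.

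**Figure D3:**
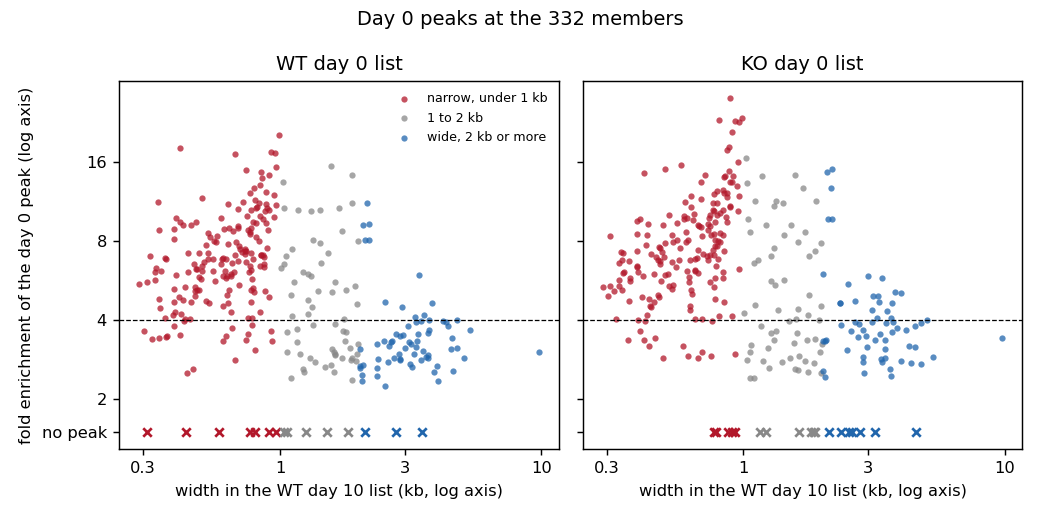
Fold enrichment of the strongest overlapping day 0 peak (log axis) against the width of the member at day 10 (kb, log axis), with the WT day 0 list on the left and the KO day 0 list on the right; crosses mark members with no day 0 peak and the dashed line marks a fold of 4. Narrow members lie mostly above the line (85.9% in WT) and wide ones mostly below it (16.9% above in WT).

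Many of the strongest peaks of the day 0 lists touched a member. Of the 100 peaks of highest fold on chromosomes 1 to 19, 98 in the WT day 0 list and 97 in the KO day 0 list lay more than 5 kb from every gene start. A member was touched by 67 and 68 of them. At day 10 the corresponding numbers of distal peaks were 59 in WT and 40 in KO. Among the 304 members with both day 0 peaks the WT and KO day 0 folds had a rank correlation of 0.826. Both lists cover the same genomic positions and came from the same assay, so this number is a description. Whether these positions also hold an excess of reads in the inputs was not tested.

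The 5 members with no day 0 peak in either line lay nearest to Fosb, Mir193b, 4930547E14Rik, 4930440C22Rik and Rassf8. All lay upstream of the nearest start and none inside a gene. The Fosb member (chr7:19911826-19912594) was 769 bp wide and lay 16.4 kb away. A 2531 bp member 17.8 kb upstream of Fos (chr12:86794509-86797039) had no KO day 0 peak and a WT day 0 peak with a fold of 2.24 that covered 25.6% of it. Fos and Fosb code for subunits of the AP-1 transcription factor and are immediate early genes, whose RNA rises within minutes of a stimulus and falls again. Fosb RNA was at 10.6, 45.9 and 34.7 normalised reads in WT day 0 and at 2612, 1307 and 23.0 in WT day 10. In KO it was at 6.23, 34.8 and 40.0 at day 0 and at 1452, 183 and 289 at day 10. The third WT day 10 library lay within the range of day 0, and neither change passed limma's test (log2 4.01, SE 1.37, adjusted p = 0.132 in WT; 4.28, SE 1.37, 0.0629 in KO). Fos varied in the same way, from 69.0 to 2881 normalised reads among the WT day 10 libraries, with adjusted p = 0.325.

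RNA values are reads per gene scaled to a common total, and the table counts exons and introns over the whole gene span. Libraries held 2081129 to 30527844 reads, and 3 of the 6 day 0 libraries (WT replicate 3, KO replicates 2 and 3) held 21087157 or more. KO day 0 replicate 1 and WT day 10 replicate 3 stood apart, with a CPM of 1023 and 1038 over olfactory and vomeronasal receptor genes against 29.6 to 361 in the other libraries (sum of CPM, Rn45s left out). Rn45s, a ribosomal RNA precursor, took 0.115 to 0.129% of the table in the 3 deep day 0 libraries and 14.8 to 25.1% in the other 9, which include every day 10 library, and its part in the results was not tested. Pluripotency markers summed to 17824 to 35375 normalised reads in WT day 0 and 2659 to 5327 in WT day 10, and to 23799 to 30041 and 7971 to 10381 in KO. Fibroblast markers summed to 152 to 6274 in WT day 0, 234 to 1638 in KO day 0, 713 to 4334 in WT day 10 and 1999 to 6753 in KO day 10, and their part in the results was not tested. In such bulk samples fewer cells of a type and less RNA per cell cannot be told apart. Ehmt2 was at 987, 1102 and 1375 in WT day 0 and 557, 441 and 375 in KO day 0, and at 1297, 1359 and 719 in WT day 10 and 500, 758 and 628 in KO day 10. Its 3 KO libraries lay below the 3 WT libraries at day 0 and overlapped them at day 10, with adjusted p = 0.993 and 0.323 (limma).

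The nearest genes of wide and narrow members had different RNA levels. Over 71 nearest genes of wide members the median was 11.0 ± 1.95 normalised reads per kb of gene span in WT day 10 (mean ± SD of 3 library medians). Over 180 nearest genes of narrow members it was 1.07 ± 1.41, with 0.25, 0.27 and 2.69 in the 3 libraries. The high one was WT day 10 replicate 3, the library with many receptor reads. In KO day 10 the same medians were 9.77 ± 1.01 and 0.14 ± 0.04. Genes nearest to shared strong peaks near starts had a median of 20.8 ± 2.25 in WT day 10. No test was made between these sets of genes.

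Part of the nearest genes had no listed day 10 H3K9ac peak within 1 kb of their listed start. A WT day 10 peak lay within 1 kb of the nearest gene's start for 139 of 332 members (41.9%), and a KO day 10 peak for 42.8%, against 51.6% and 53.0% of all autosomal genes. Genes of narrow and wide members stood apart both with and without a WT day 10 peak at the start. With one, the 71 genes of narrow members had WT day 10 medians of 3.60, 5.86 and 5.90 normalised reads per kb. The 34 of wide members had 13.2, 13.2 and 13.9. Of these genes 45.1% and 82.4% were above the median of all genes tested in all 3 WT day 10 libraries. Among all autosomal genes with such a peak the share was 68.6%. Where the start had no WT day 10 peak, the 109 genes of narrow members had WT day 10 medians of 0.06, 0.04 and 2.28. Their medians were 0 in all 3 KO day 10 libraries. The 37 such genes of wide members had 5.23, 7.90 and 9.67 in WT day 10 and 6.49, 5.53 and 4.41 in KO day 10. The ranges did not overlap in any of the 4 groups. Of those 37 genes 19 (51.4%) were above the median of all genes tested in all 3 WT day 10 libraries, against 4 of 109 (3.67%) for narrow members. Among all 11084 autosomal genes without a peak at the start the share was 5.95%. For such genes of members of 1 to 2 kb it was 10 of 39 (25.6%). The narrow members of this comparison lay at a median of 136 kb and the wide ones at 17.5 kb. The part of distance was not tested.

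**Figure D4:**
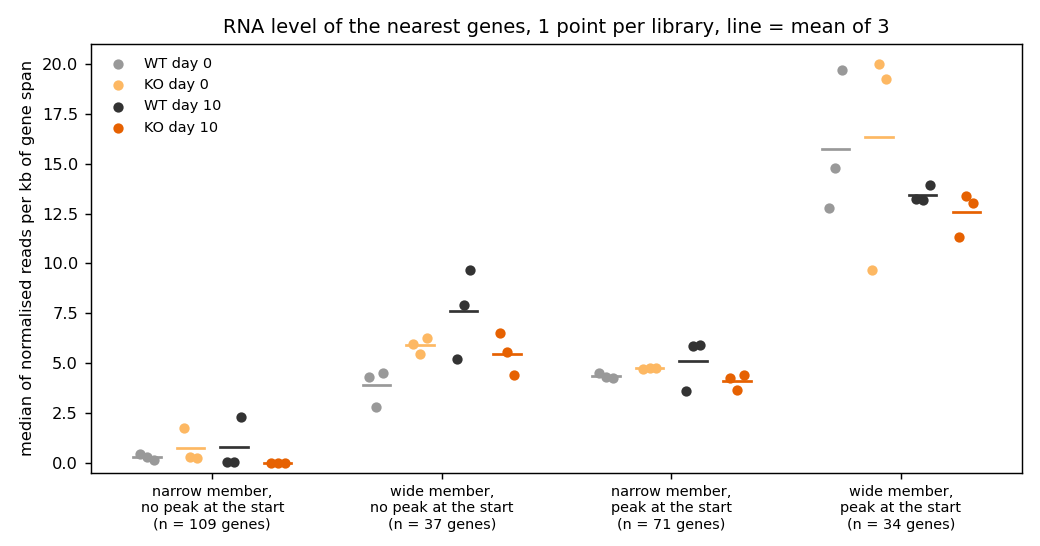
Median RNA level of the nearest genes (normalised reads per kb of gene span), 1 point per library and a line for the mean of 3, in 4 sets made by member width and by a WT day 10 peak within 1 kb of the gene's start. Genes without a peak at the start stay near 0 beside narrow members, except in the libraries KO day 0 replicate 1 and WT day 10 replicate 3, and lie between 2.82 and 9.67 beside wide members.

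Of these 37 wide members 22 lay upstream of the start and between genes, 9 inside a gene and 6 downstream between genes, at a median distance of 17.5 kb. RefSeq promoter windows were found for 22 of the 37 genes and held a median of 3 CG pairs, with under 10 in 77.3% of them. The 79 windows of genes beside narrow members without a start peak also had a median of 3, and 75.9% were under 10. Where the start carried a peak the medians were 22 beside wide and 20 beside narrow members, close to the 24 of genes with a shared strong peak nearby. Over all 27025 genes with a window the median was 7, and 56.1% were under 10. The letters TATAAA, searched on both strands, occurred in 22.7% of the 22 windows, 16.5% of the 79 windows and 14.2% of all windows, and occur in the printed window of Lphn2. GGGCGG, searched likewise, occurred in 13.6%, 22.8% and 35.9%.

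Between day 0 and day 10 in WT, 13 of the 284 nearest genes tested passed limma's test at an adjusted p under 0.05, 9 higher and 4 lower. The background over 20624 genes was 4.42%, with 2.02% higher and 2.4% lower, and the members' 4.58% lay near it. The median log2 change was -0.15 over nearest genes and -0.20 over all genes. The nearest genes' median was -0.60 without WT day 10 replicate 3, 0.18 and 0.15 without replicates 1 and 2, and 0.03 with RLE scaling. Among wide members' nearest genes 6 of 67 passed, all higher, and among narrow members' 5 of 161. The higher genes included Zfp608, Lphn2, Zfhx3, Zmiz1, Utrn, Fat1, Bcl2l11 and Nrip1, and 6 of the 9 had a wide member. The lower genes were Cenpv, Mreg, Dppa4 and Tex14, and none of them had one. Without WT day 10 replicates 1 and 2 the count was 7 (2.46%, background 3.03%) and 8 (2.82%, 2.27%). It was 8 (2.83%, 2.27%) without WT day 0 replicate 3 and 21 (7.45%, 6.83%) without KO day 0 replicate 1. Of the 13 genes 7 passed in every fit that left out 1 library. With edgeR on recovered reads 16 of 209 nearest genes tested passed (7.66%), at a background of 7.03%, and 11 of the 13 were among them.

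Lphn2, a latrophilin that mediates adhesion between cells, rose from 290, 138 and 203 normalised reads in WT day 0 to 2702, 2656 and 3524 in WT day 10. In KO it rose from 392, 355 and 366 to 1698, 1681 and 1543. All day 10 libraries lay above all day 0 libraries in both lines, and the log2 change was 3.86 (SE 0.29, adjusted p = 1.16e-05, limma) in WT and 2.14 (SE 0.29, 0.00118) in KO. Its 4772 bp member (chr3:148649214-148653985) lay 31.6 kb upstream with a fold of 4.56 in WT and 4.82 in KO. Day 0 peaks covered 22.9% of it in WT (fold 3.13) and 15.6% in KO (fold 2.73), and no list had a peak at the gene's listed start.

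Utrn codes for utrophin, a cytoskeletal linker related to dystrophin, and its 3480 bp member (chr10:12586756-12590235) lay 5.22 kb upstream. That member had no WT day 0 peak and a KO day 0 peak with a fold of 2.86, and none of the 4 lists had a peak at the listed start of Utrn. Its RNA was at 3240, 1587 and 2162 in WT day 0 and at 5944, 7143 and 7048 in WT day 10. In KO it was at 3198, 2989 and 3020 and then at 4756, 5555 and 5116. The day 10 libraries were the higher in both lines, and the change passed in WT (log2 1.58, SE 0.27, adjusted p = 0.00366) but not in KO (0.74, SE 0.27, 0.084), and the difference of the 2 changes did not pass in limma.

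Fat1, a giant protocadherin of cell polarity, was at 4357, 2568 and 2776 in WT day 0 and at 11061, 9469 and 5432 in WT day 10. In KO it was at 3858, 5791 and 5866 and then at 10020, 12759 and 11863. The groups did not overlap in either line (log2 1.40, SE 0.31, adjusted p = 0.0200 in WT; 1.18, SE 0.31, 0.0375 in KO). Its member, 4391 bp wide at chr8:46020086-46024476, lay 11.1 kb upstream, and the listed start had a peak in the WT day 0 list only.

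Zmiz1, a coactivator of the PIAS family, and Zfhx3, a large zinc finger and homeodomain factor, had wide members 78.9 and 9.40 kb upstream and a peak at the start. In WT they rose by 2.06 (SE 0.53, adjusted p = 0.0398) and 2.15 (SE 0.55, 0.0411) on the log2 scale, and neither passed in edgeR. Zfp608, a zinc finger gene with members 326 and 330.3 kb upstream, rose by 4.05 on the log2 scale in WT (SE 0.63, adjusted p = 0.00241). Bcl2l11, which codes for the proapoptotic protein BIM, and Nrip1, a nuclear receptor corepressor, rose by 1.29 and 1.00 on that scale in WT. Nrip1 was named after its values were seen.

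Dppa4, a DNA-binding factor of pluripotent cells, fell from 665, 443 and 523 in WT day 0 to 139, 189 and 118 in WT day 10. In KO it was at 442, 530 and 532 and then at 282, 397 and 289. The WT change was -1.87 (SE 0.30, adjusted p = 0.00252), and that in KO, -0.65 (SE 0.30), did not pass. Its 662 bp member lay 32.4 kb upstream (chr16:48250818-48251479) and was listed in all 4 lists, with a fold of 8.73 at WT day 0. Mreg, which codes for melanoregulin, had 2 members 12.3 and 31.1 kb upstream of its start. It fell from 4562, 2351 and 2061 to 791, 729 and 379 in WT (log2 -2.22, SE 0.38, adjusted p = 0.00396). Both of its members were present in all 4 lists. Cenpv, a centromere protein gene, fell by 2.23 (SE 0.39) and Tex14, needed for intercellular bridges of germ cells, by 1.57 (SE 0.36) on the log2 scale.

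**Figure D5:**
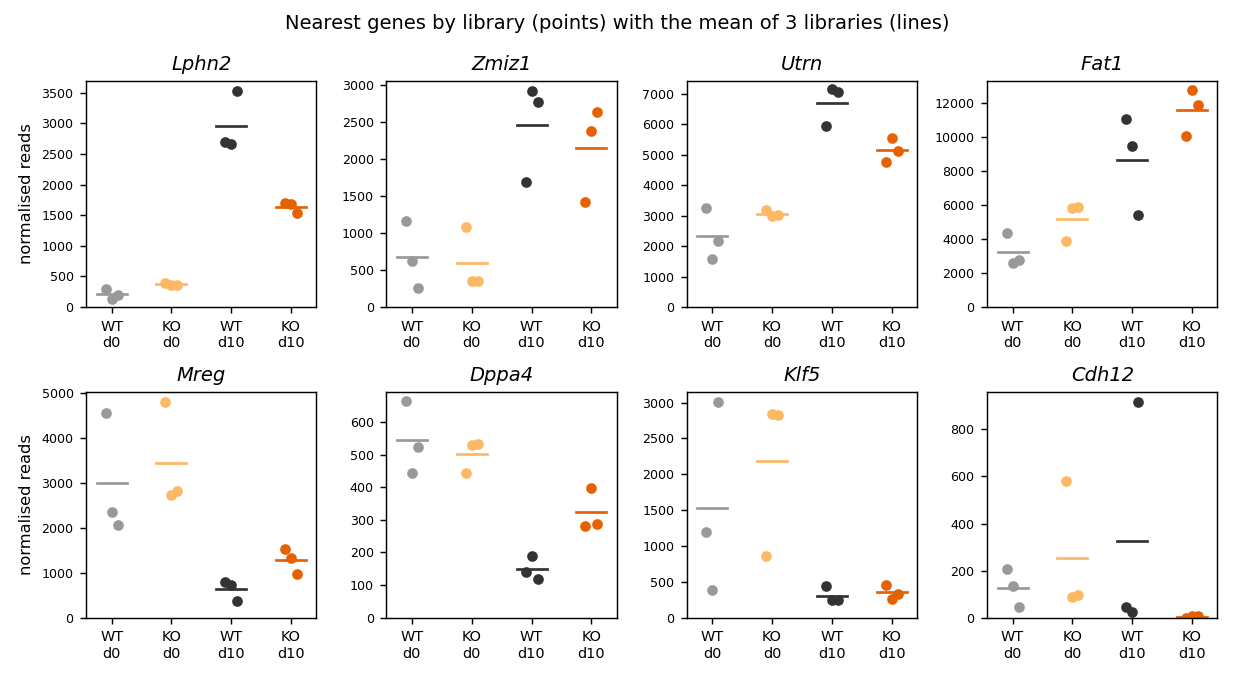
Normalised reads of 8 nearest genes by group, 1 point per library and a line for the mean of 3; each axis starts at 0. Lphn2, Zmiz1, Utrn and Fat1 are higher at day 10 than at day 0 in every library of both lines, Mreg and Dppa4 are lower, Klf5 overlaps in WT, and Cdh12 is high in KO day 0 replicate 1 and WT day 10 replicate 3.

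In KO, 41 of the 284 nearest genes passed between day 0 and day 10, 7 higher and 34 lower, at a background of 8.89% (2.43% higher and 6.46% lower). With RLE scaling the split was 13 higher and 14 lower (9.51%, background 7.19%). The median log2 change was -1.04 over nearest genes and -0.68 over all genes. Of genes nearest to strong distal WT peaks without a strong KO partner, 44 of 312 passed (14.1%). Of these 33 were lower, and the median over that set was -0.87. The count for the members' nearest genes moved with single libraries: without KO day 0 replicate 1 it was 42 (14.9%) at a background of 14.2%, but only 20 of the 41 were among them. The count was 4 (1.41%, background 1.49%) and 3 (1.06%, 1.40%) without KO day 0 replicates 2 and 3. Without KO day 10 replicates 1, 2 and 3 it was 6 (2.11%, 2.44%), 3 (1.06%, 1.45%) and 2 (0.71%, 0.97%). It was 19 (6.71%, 6.45%) without WT day 0 replicate 2 and 100 (35.5%, 22.2%) without WT day 10 replicate 3. Only 2 of the 41 passed in every fit that left out 1 library. With edgeR 17 of 209 nearest genes tested passed (8.13%), at a background of 7.03%, and 15 of the 41 were among them. The lower genes with the largest changes included Cdh12, Lhfpl3, Agmo, Esr1, Mdga2, Gpr158, Agbl1 and Ncam2. None of these named genes passed in edgeR (adjusted p = 0.0601 to 0.0918). Without KO day 0 replicate 1 only Cdh12 of them passed in limma (adjusted p = 0.0302). In DESeq2 Gpr158 and Agbl1 had no adjusted p and the others passed. Of all 34 lower genes, 21 had their highest value in KO day 0 replicate 1 or WT day 10 replicate 3. Cdh12, a neuronal cadherin with a narrow member in its body, was at 579, 88.9 and 98.1 in KO day 0 and at 0, 5.48 and 8.09 in KO day 10. It was at 46.3, 22.6 and 914 in WT day 10. The part of those libraries' receptor reads, and of the depth gap between KO day 0 (2790870 to 26683251 reads) and KO day 10 (2190467 to 3222164), in these calls was not tested.

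Of the nearest genes that passed in WT, 7 also passed in KO, 5 higher in both lines (among them Zfp608, Lphn2, Zmiz1 and Fat1) and 2 lower in both (Mreg and Cenpv). In KO, Zfp608, Zmiz1, Mreg and Cenpv did not pass in edgeR (adjusted p = 0.0678, 0.0646, 0.0787 and 0.0514), while Lphn2 and Fat1 did. Of these named genes only Mreg did not pass in DESeq2 (adjusted p = 0.0597). Without KO day 0 replicate 1, Fat1 and Mreg did not pass in limma (adjusted p = 0.0541 and 0.0589). Hs3st3b1, a heparan sulfate sulfotransferase gene, and Gatad2a, a NuRD subunit, rose in KO by 1.76 (SE 0.48, adjusted p = 0.0398) and 0.92 (SE 0.26, 0.0418). Klf5, a Krüppel-like factor of naive pluripotency with a narrow member 352 kb downstream of its start, fell in KO by 2.47 (SE 0.62, adjusted p = 0.0313) on the log2 scale. In WT it was at 1199, 388 and 3013 at day 0 and at 438, 245 and 241 at day 10, with adjusted p = 0.109. Lphn2 passed in KO in all 12 fits that left out 1 library.

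Between KO and WT no nearest gene passed at day 10, at day 0 or in the difference of the 2 changes, and no gene of the 20624 did (background 0 in each, limma). At an unadjusted p under 0.05 there were 51 nearest genes at day 10 (18.0%, background 11.9%), 6 at day 0 (2.11%, 3.82%) and 42 for the difference (14.8%, 8.7%). edgeR called 0 in each, and DESeq2 called 13 (background 3.28%), 0 (0.105%) and 5 (0.588%). At day 10, 48 of the 51 were lower in KO, and the median log2 difference was -0.46 over nearest genes and -0.26 over all. Over all genes 2038 of 2462 were lower. Genes nearest to strong distal WT peaks without a strong KO partner had similar values at day 10. Of these 52 of 312 (16.7%) were under 0.05, 46 of them lower, with a median of -0.46. For the difference of the changes they had 44 of 312 (14.1%) and a median of -0.73, against -0.74 for the members' nearest genes. Single libraries moved the values of the members' nearest genes. Without WT day 10 replicate 3 the day 10 count was 20 of 282, against 1451 of all 20290 genes, and the medians were -0.14 and -0.08. Without WT day 10 replicate 1 the count was 72 of 284, against 3360 of 20568, and the medians were -0.73 and -0.37. The day 10 count was 32 and 29 without KO day 10 replicates 1 and 2, against 2008 of 20597 and 1570 of 20590 genes. The day 0 count, with that over all genes in brackets, was 32 (1945 of 20341) and 3 (475 of 20451) without KO day 0 replicates 1 and 2. Without WT day 0 replicates 1, 2 and 3 it was 12 (1038 of 20503), 2 (328 of 20531) and 13 (1477 of 20507). Without WT day 10 replicate 3 it was 12 (1152 of 20290). The count for the difference was 19 (1038 of 20290) and 71 (2848 of 20568) without WT day 10 replicates 3 and 1. It was 26 (1410 of 20531) and 25 (1547 of 20507) without WT day 0 replicates 2 and 3, and 26 (1233 of 20590) without KO day 10 replicate 2. The genes with the lowest p in KO were Cdh12, Erbb4, Oprk1, Prelid2 and Lhfpl3 among the lower, all 5 of which had their highest value in WT day 10 replicate 3, and Dppa4, Mreg, Zfp213, G6pd2 and Cenpv among the higher. Dppa4 was higher in KO by 1.12 (SE 0.30) and Mreg by 1.06 (SE 0.38) on the log2 scale, with adjusted p = 0.210 and 0.290, and in both genes the KO day 10 libraries lay above the WT ones.

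Of 242 autosomal genes in 13 lists for chromatin factors and cell types 7 were nearest to a member (2.89%), against 316 of all 22882 autosomal genes (1.38%). Nearest genes included Hdac4 of 16 histone deacetylase and corepressor genes, Arid1a of 16 enhancer and Mediator cofactor genes, Klf5 and Dppa4 of 27 pluripotency genes, and Fos and Ier2 of 31 AP-1, TEAD and growth control genes. The lists of H3K9 acetyltransferases, primed epiblast, endoderm, trophoblast, smooth muscle, matrix, Hox and neural genes had none. These held 10 to 24 genes each, too few at a share of 1.38% for a count of 0 to describe a list. Of the 16 acetyltransferase and acetyl reader genes 0 were higher and 1 was lower in WT at day 10, with a median log2 change of -0.0035, and in KO likewise 0 and 1, with a median of -0.22. Of the 27 pluripotency genes 17 were lower and 1 higher in WT (median -2.33), and 12 lower and 2 higher in KO (median -1.35). Hdac4, with a wide member 30.0 kb upstream, was at 1970, 789 and 481 in WT day 0 and at 1127, 2308 and 2337 in WT day 10, groups that overlapped (adjusted p = 0.332). Ier2, an immediate early gene, and Arid1a likewise had overlapping groups in WT.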

How the data were processed

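Per the labels' protocols, RNA was extracted with Qiagen RNeasy columns and depleted with Ribo-Zero, and H3K9ac ChIP used 1 antibody for all groups. Per the submitters' processing notes, the tools were TopHat and HOMER for RNA, and Novoalign and MACS2 for ChIP, on mm9; versions are not given in the sources used here. The authors deposited 1 signal per gene and library, reads scaled to a common total, from which whole reads were recovered (at least 99.99% of values whole within 0.006). The authors deposited 1 peak list per ChIP sample, with a fold enrichment, a -log10 p-value and a -log10 q-value for each peak. No peak had a -log10 p-value under 2.00. Whether inputs served as controls is not given in the sources used here.

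Distances run from the peak edge to the start of each gene of the authors' table. Genes above 1 in at least 3 libraries (20624) were tested with limma 3.58.1 (trend, robust) on log2(value + 1), where fold changes of low genes are understated, with all 12 libraries and Benjamini-Hochberg adjustment at 0.05; edgeR 4.0.16 and DESeq2 1.42.0 on recovered reads were alternatives. Adjusted p-values are limma's unless another tool is named. The design had assumed counts. The labels do not say that libraries of a group came from separate cultures, so p-values may measure technical spread only. Within groups log2 values correlated at 0.816 to 0.993.

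Named regions were the 10 with the highest mean rank of fold in both lists, the 5 widest and those of genes with 3 or more members. Named genes were the 8 highest and 8 lowest that passed in each line, without predicted and small RNA genes, the 5 of lowest p in each direction between KO and WT, and list genes. Genes at the edges of the rule, those nearest to members without a day 0 peak (Fosb among them), Nrip1 and the microRNA genes were named outside these rules. Members, lists and rules were chosen with earlier results of these data known. RefSeq accessions matched 312 of 316 nearest genes, and 233 had a promoter window. Member sequences, motifs in them, allele counts and H3K9me2 were not analysed here, and 2 inputs whose labels conflict on the day were left unassigned. One gene that the rule names is not reported here.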

Additional observations from a re-analysis of the deposited data

How the results depend on the processing

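With a fold of at least 3 in both lists the members numbered 892, and with at least 6 they numbered 77; requiring 50% overlap or a distance of 2 or 10 kb kept the count within 1.5 times. The share with a WT and a KO day 0 peak was 63.6% and 69.0% when the day 0 fold had to reach 4, 87.0% and 80.4% when day 0 peaks had to cover 50% of the member, and 100% and 100% among members with a fold of at least 6. Of nearest genes in WT between the days, 27 passed with DESeq2 (12.6%, background 12.2%) and 8 with only the compared groups (2.95%, 1.93%). Without the 2 libraries with high receptor reads, an alternative chosen after seeing the data, 35 passed (12.7%, 10.7%). Leaving out 1 library gave 7 (without WT day 10 replicate 1, 2.46%, background 3.03%) to 21 (without KO day 0 replicate 1, 7.45%, 6.83%). In KO the count was 17 with a pseudocount of 5 (5.99%, background 5.11%), 21 with no filter (6.89%, 6.00%), 27 with RLE scaling (9.51%, 7.19%) and 17 with edgeR (8.13%, 7.03%). It was 74 with DESeq2 (29.4%, 18.4%), 97 with only the compared groups (35.8%, 21.5%) and 108 without the 2 libraries (39.1%, 27.1%). It was 21 for genes within 100 kb (11.6%, 8.89%). With 1 library left out it ran from 2 (0.71%, 0.97%) to 100 (35.5%, 22.2%). The KO median of -1.04 was -0.58 with edgeR and -0.57 over all gene starts within 50 kb. For members with a day 0 peak in both lines it was -1.14, and -0.61 and -0.60 under the same settings. DESeq2 called 13 nearest genes between KO and WT at day 10 (5.51%, background 3.28%) and 5 for the difference of the changes (2.12%, 0.588%). The 5 members without a day 0 peak have 4 tested nearest genes, so their median rests on few genes: in WT it was 0.45, and 3.26 with edgeR and 1.32 with DESeq2; in KO it was -0.71, and -0.20 with a pseudocount of 5, 2.65 with edgeR, 0.53 with only the compared groups or with genes within 100 kb, -0.31 with all starts within 50 kb, -0.23 without the 2 libraries and -1.06 to -0.23 when 1 library was left out. Apart from the changes in tested genes or samples that these settings make, the cause was not tested.

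RLE scaling moved the median of all genes from -0.20 to -0.01 in WT and from -0.68 to -0.41 in KO, and turned the KO calls of nearest genes from 7 higher and 34 lower to 13 higher and 14 lower. With the replicate number as a block 12 nearest genes passed in WT (4.23%, background 4.12%) and 31 in KO (10.9%, 7.82%). The numbers do not pair the samples: same-numbered libraries had correlations of deviations from -0.58 to 0.58. No nearest gene passed between KO and WT under limma in any fit with 1 library left out.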
